A study of Penicillium oxalicum with 6 samples.

Results

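*creA* (POX_e07192), *amyR* (POX_f08097) and *cxrC* (POX_a00541) encode 3 transcription factors that tie enzyme production of the filamentous fungus *Penicillium oxalicum* to its carbon source. They were taken by gene identifier and not by their values. They make up 3 of the 9822 genes listed for each library, and all 3 were among the 8605 genes tested, whose average was 1 FPKM or more. FPKM is a fragment count corrected for gene length and for the total mapped in that library, so that levels of different genes can be compared.

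In filamentous fungi such as *Aspergillus*, CreA is a zinc-finger protein of the C2H2 type that mediates carbon catabolite repression. While glucose or another preferred sugar is present, it represses genes needed for other carbon sources, amylase genes among them. AmyR is a zinc-cluster (Zn2Cys6) activator of starch-degrading enzyme genes in *Aspergillus*, and in *P. oxalicum* it is known to bind the promoters of the genes for the glucoamylase PoxGA15A and the α-amylase Amy13A. CxrC, annotated as a Zn2Cys6 protein, is known in *P. oxalicum* as a negative regulator of genes for major raw starch-degrading enzymes. The set thus holds an activator and a pair of negative regulators of amylase genes.

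RNA-seq of mycelium was available for 3 libraries of the parental strain Δ*ku70* (titled POXKu70, with WT as its genotype label) and 3 of a strain in which POX00418 was removed in that Δ*PoxKu70* background, so all 6 libraries share the *ku70* deletion, which favours targeted integration of introduced DNA. Spores were grown on glucose for 24 h and the mycelium was then kept for another 24 h in an enzyme production medium, whose carbon source is raw starch by the protocol in the labels, Avicel (a cellulose) by the treatment label and corn starch by the study. POX00418 is an older gene number, and in the study this mutant is Δ*rsrC*. The C2H2-type regulator gene *rsrC* (POX_a01508) had 27.1, 30.3 and 39.0 FPKM in the parent and was listed at 0 in each library of the deletion strain, which is called Δ*rsrC* here. The study mentions 3 independent transformants per mutant for its enzyme assays, but the labels do not say which transformant a library came from or whether the cultures were separate, so p-values measure only the spread between these libraries.

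The depth of the libraries is unknown because the tables hold no counts. Relative depth, read from low values, was estimated at 77.9% to 105% of that of Δ*ku70* replicate 1. Each estimate rests on 30 to 63 genes, assumed to have equal fragment counts in that library and in Δ*ku70* replicate 1. The sum of FPKM ranged from 1274812 to 1317078 among the parent libraries and from 1493556 to 1536317 among those of Δ*rsrC*, and the 10 highest genes held 10.8% to 12.3% of it in Δ*ku70* and 15.9% to 16.6% in Δ*rsrC*. The scaling of the libraries against each other is therefore part of every comparison of levels below. It cancels in the ratios within a library.

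The repressor gene *creA* was the highest of the 3 regulator genes and was lower in Δ*rsrC*. Replicates 1, 2 and 3 of the parent gave 260 FPKM, 240 FPKM and 278 FPKM, and those of the mutant gave 149 FPKM, 195 FPKM and 168 FPKM. The strains did not overlap, and the highest Δ*rsrC* library remained below the lowest Δ*ku70* library. Its mean decreased by 34.2% (log2 change -0.61, 95% interval -0.92 to -0.30, limma adjusted p = 0.0126). Among all tested genes, 25.6% were called lower in Δ*rsrC* at an adjusted p under 0.05, 13.8% were called higher, and 19.2% had a more negative log2 change than *creA*.

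For the activator gene *amyR*, Δ*ku70* replicates 1, 2 and 3 gave 58.1, 53.2 and 61.0 FPKM. In Δ*rsrC* replicates 1, 2 and 3 its level was 42.0, 50.5 and 44.9 FPKM. Each Δ*rsrC* library was below each Δ*ku70* library, and the closest pair was replicate 2 of either strain. The log2 change of -0.32 (95% interval -0.59 to -0.06) did not pass the threshold over all genes (limma adjusted p = 0.0587). The change of the mean was -20.3%.

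The *cxrC* gene was the lowest of the set, and Δ*ku70* replicates 1, 2 and 3 gave 30.9, 31.6 and 27.0 FPKM. The Δ*rsrC* replicates 1, 2 and 3 had 25.1, 25.5 and 22.1 FPKM. Replicate 3 was the lowest library of both strains for *cxrC*, whereas for *creA* and *amyR* it was the highest of Δ*ku70*. The strains did not overlap, and the log2 change of -0.29 (95% interval -0.56 to -0.02) did not pass (limma adjusted p = 0.0816). The change of the mean was -18.8%.

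**Figure D1:**
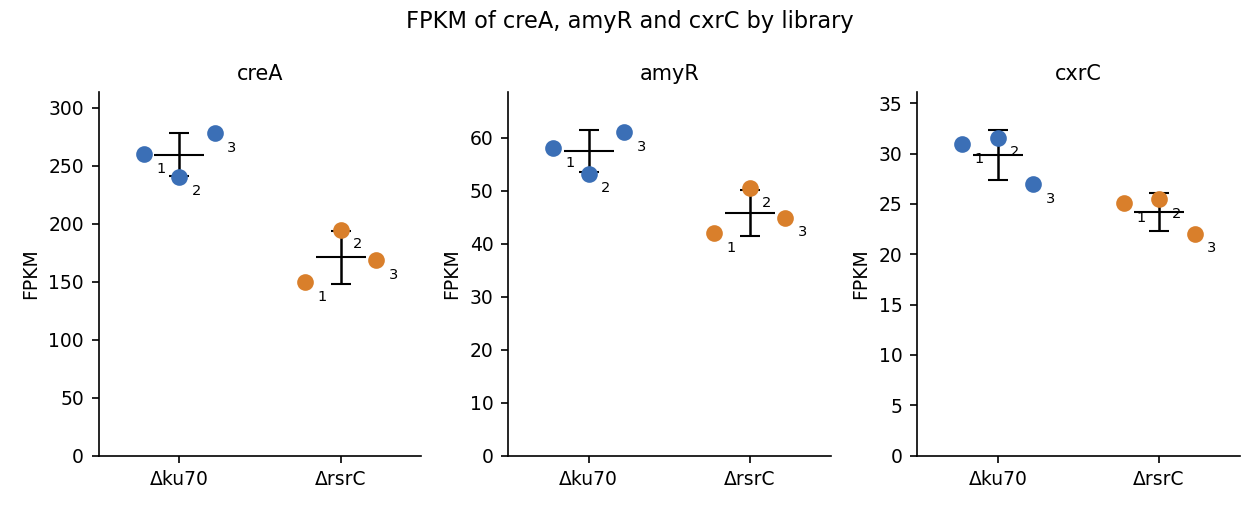
FPKM of *creA*, *amyR* and *cxrC* in each library of Δ*ku70* (blue) and Δ*rsrC* (orange). Points are libraries with their replicate numbers, and horizontal bars with whiskers are the mean and SD (n = 3 for each strain). In each panel every Δ*rsrC* point lies below every Δ*ku70* point, by the widest relative margin for *creA* (149 to 195 against 240 to 278 FPKM).

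For single genes, an exact permutation test of 3 against 3 libraries cannot give a p below 0.1, and each of the 3 genes reached that value. Non-overlap by itself is common in these data: 35.2% of the tested genes were lower in Δ*rsrC* in every library than in any Δ*ku70* library. The order of levels, *creA* above *amyR* above *cxrC*, was the same in all 6 libraries, and the ranges of the 3 genes did not touch within either strain. *creA* ranked between 781 and 904 among the 9822 genes in Δ*ku70* and between 1154 and 1442 in Δ*rsrC*. *amyR* ranked between 3199 and 3569 in Δ*ku70* and between 3429 and 3834 in Δ*rsrC*, with overlap. *cxrC* ranked near the middle of all genes, 4949 to 5333 and 5122 to 5373 in the same order, also with overlap.

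The replicate spread of these regulator genes was mostly at or below that of other genes. The coefficient of variation in Δ*ku70* was 7.27% for *creA*, 6.86% for *amyR* and 8.37% for *cxrC*, against a median of 13.4% over the tested genes. In Δ*rsrC* it was 13.4%, 9.49% and 7.74%, against a median of 11.4%, so *creA* was the gene of the set above that median.

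Because the strains differ in the sum of FPKM, the levels were compared under 4 scalings. After rescaling each library to equal sums (TPM), the strains did not overlap for any of the 3 genes. For levels, the share of all tested genes without overlap was counted only as deposited (35.2% lower). It was not counted on this scale or the other scalings. *creA* was at 187 to 211 TPM in Δ*ku70* and 97.2 to 129 TPM in Δ*rsrC*. The values of *amyR* were 41.5 to 46.3 and 27.3 to 33.4 TPM, and those of *cxrC* 20.5 to 24.6 and 14.8 to 16.9 TPM, in the same order. All 3 genes passed on this scale, with log2 changes of -0.83, -0.54 and -0.50 and limma adjusted p = 0.00306, 0.00741 and 0.0106, while 42.4% of all tested genes were called lower and 8.65% higher.

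With median-ratio scaling, which sets the typical gene to be equal, only *creA* kept the strains apart, at 230.4 to 262 against 158 to 199.9 scaled FPKM. *amyR* then overlapped, at 51.0 to 57.4 in Δ*ku70* and 44.5 to 51.8 in Δ*rsrC*. So did *cxrC*, at 25.4 to 30.3 and 23.6 to 26.6. *creA* passed (log2 change -0.47, limma adjusted p = 0.0250), with 17.3% of tested genes called lower and 18.9% higher, and *amyR* and *cxrC* did not (log2 changes -0.18 and -0.15, adjusted p = 0.199 and 0.308). After quantile normalization *creA* passed again with a log2 change of -0.66 (limma adjusted p = 0.0110), with 17.2% of tested genes called lower and 16% higher, and the log2 changes of *amyR* and *cxrC* were -0.16 and -0.07 (adjusted p = 0.297 and 0.653). Over all tested genes the median log2 change stood at -0.13 for the deposited values, at -0.34 on the TPM scale, at -0.0028 with median ratios and at -0.04 with quantiles. Under each of the 4 scalings *creA* stood further below that median than *amyR* or *cxrC* did.

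**Figure D2:**
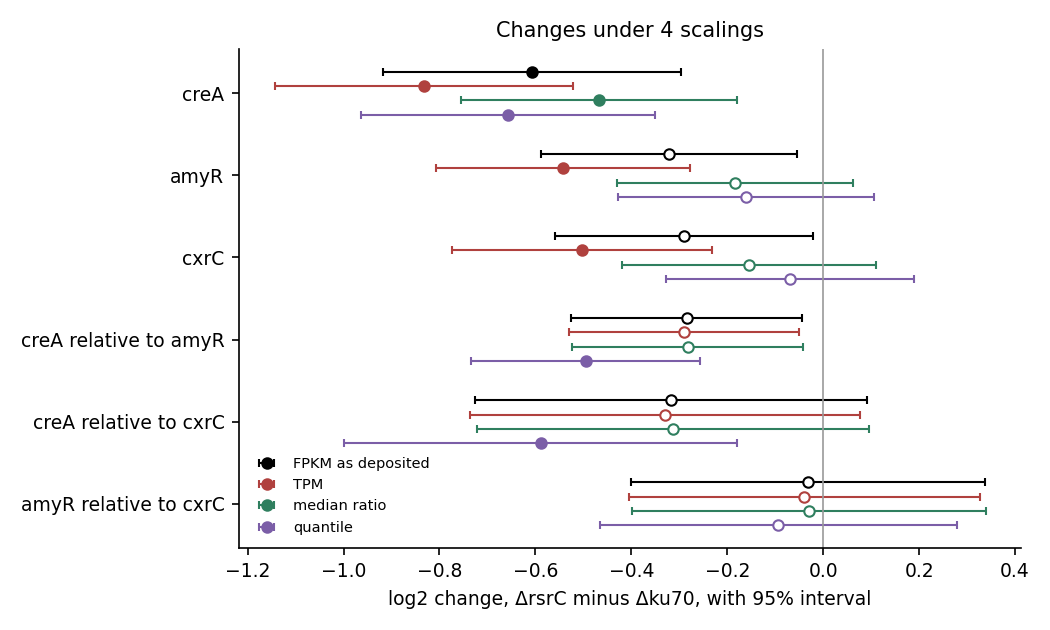
Log2 change (Δ*rsrC* minus Δ*ku70*) with 95% interval for each gene and for each gene relative to another in the same library, under the 4 scalings. Filled points have an adjusted p under 0.05 and open points do not. *creA* is filled under all 4, *amyR* and *cxrC* only after TPM rescaling, and the relative changes of *creA* only after quantile normalization.

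Ratios of FPKM within a library do not depend on a factor common to that library. The ratio of *creA* to *amyR*, repressor to activator, was 4.48, 4.52 and 4.56 in Δ*ku70* replicates 1, 2 and 3. In Δ*rsrC* replicates 1, 2 and 3 it was 3.56, 3.86 and 3.75. The strains did not overlap, and the mean ratio of the parent, 4.52 ± 0.0411 (SD, n = 3), compared with 3.72 ± 0.151 (SD, n = 3) for the mutant, a change of -17.7%. The exact two-sided permutation p was 0.1, the smallest possible. In a limma fit of every gene relative to *amyR*, the change of *creA* was -0.28 on the log2 scale (SE 0.10, 95% interval -0.53 to -0.04, adjusted p = 0.0714 over all genes) and so did not pass the threshold. In that fit 6.59% of genes were called lower relative to *amyR* and 24.9% higher, and for 13.9% of genes the ratio to *amyR* was lower in every Δ*rsrC* library than in any Δ*ku70* library (50.3% without overlap in either direction).

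The ratio of *creA* to *cxrC* was 8.41, 7.61 and 10.3 in Δ*ku70* replicates 1, 2 and 3. The values for Δ*rsrC* were 5.95, 7.65 and 7.63. Here the strains overlapped narrowly, with Δ*ku70* replicate 2 just below replicates 2 and 3 of Δ*rsrC*. The means were 8.78 ± 1.39 (SD, n = 3) and 7.08 ± 0.977 (SD, n = 3), with an exact permutation p of 0.3. With a pseudocount of 1 on both values, the scale of the limma fit, or after quantile normalization, the exact permutation p was 0.1. The relative log2 change was -0.32 (95% interval -0.73 to 0.09, limma adjusted p = 0.213), while 7.88% of genes were called lower and 21% higher relative to *cxrC*.

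The ratio of *amyR* to *cxrC* was 1.88, 1.68 and 2.26 in Δ*ku70* and 1.67, 1.98 and 2.04 in Δ*rsrC*, again by replicate. The strains covered nearly the same range, with an exact permutation p of 0.9. The relative log2 change was -0.03 with a 95% interval of -0.40 to 0.34, and its sign changed when Δ*ku70* replicate 3 (0.080) or Δ*rsrC* replicate 1 (0.053) was left out (limma adjusted p = 0.899 with all libraries). A difference between the changes of *amyR* and *cxrC* was not detectable within that interval. Over the 3 pairs compared, 0 had an adjusted p under 0.05 in these limma fits, and 1, *creA* to *amyR*, had an unadjusted p under 0.05 (0.0267).

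**Figure D3:**
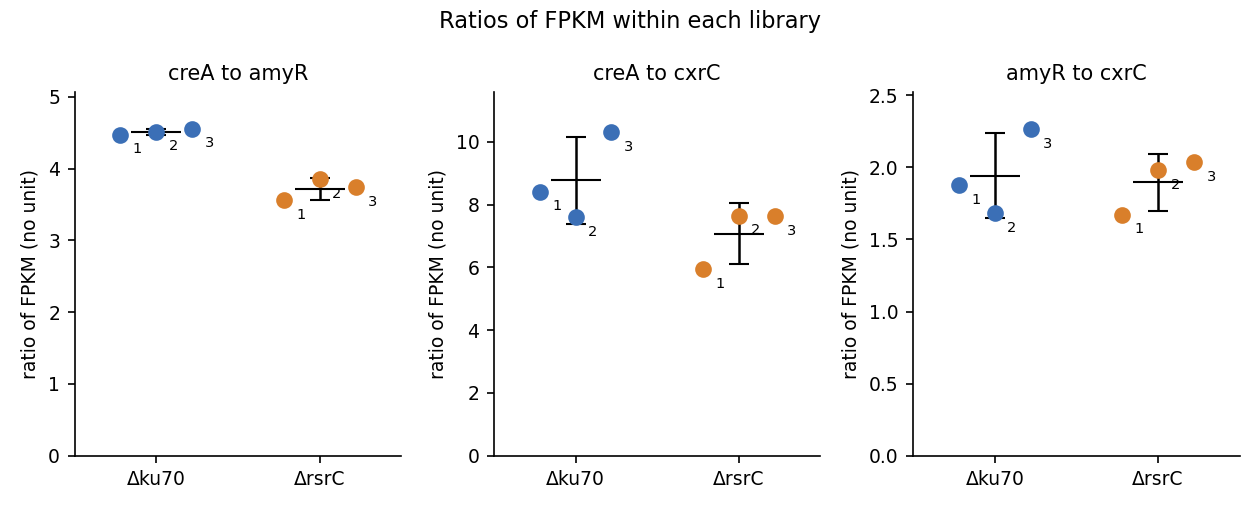
Ratios of FPKM within each library for the 3 pairs of genes, with replicate numbers, mean and SD (n = 3 for each strain). The *creA* to *amyR* ratio lies at 4.48 to 4.56 in Δ*ku70* and 3.56 to 3.86 in Δ*rsrC* without overlap, and the ratios to *cxrC* overlap between strains.

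The *creA* to *amyR* ratio varied little among replicates. Its coefficient of variation was 0.911% in Δ*ku70* and 4.06% in Δ*rsrC*, below that of either gene alone, and both genes ordered the libraries the same way within each strain (3, 1, 2 in Δ*ku70* and 2, 3, 1 in Δ*rsrC*, from high to low). The SD of the log2 ratio within strains was 0.0427. Of 8359 genes with values above 0 in all libraries, 15 had a smaller SD of their ratio to *creA* than *amyR*, and the median SD was 0.240. For *cxrC* the SD of the log2 ratio to *creA* was 0.216, and 42.4% of genes had a smaller one. These ranks describe the libraries and were looked up after the ratios had been seen.

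The genes with the most similar pattern were ranked by Pearson's r of log2(FPKM + 1) over the 6 libraries, which combines the strain difference with the replicate spread. For *creA* they were POX_e07013, POX_d05928 and POX_a00504 (r = 0.997, 0.996 and 0.996), and 368 genes exceeded 0.95. For *amyR* they were POX_f07983, POX_e06494 and POX_e06939 (r = 0.997, 0.996 and 0.996), with 176 genes over 0.95. For *cxrC* they were POX_c04685, POX_b02260 and POX_a00346 (r = 1.00, 0.993 and 0.991), with 69 genes over 0.95. All 9 genes were lower in Δ*rsrC* on average, with log2 changes from -0.71 to -0.33. That direction follows from the selection, since each regulator gene was lower in every Δ*rsrC* library, and is not separate evidence. High values of r are frequent with 6 libraries in 2 groups. None of the 3 regulator genes was among the 3 nearest of another, which does not make their patterns unlike.

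The amylolytic genes, on some of which these regulators are known to act, were set beside them. This list of 8 genes was drawn by the study in part from these libraries, so its counts are not independent evidence. As deposited, 3 of the 8 fell, 1 rose and 4 did not pass, with a median log2 change of 0.17 against -0.13 over all tested genes, of which 25.6% were called lower and 13.8% higher. Glucoamylases are enzymes that release glucose from starch. For the glucoamylase gene *PoxGA15A* the parent libraries gave 773, 1151 and 1473 FPKM, and the mutant libraries 495, 561 and 503 FPKM. For the glucoamylase gene *POX_b02418* the values were 369, 535 and 872 FPKM against 187, 208 and 193 FPKM. Both fell, with log2 changes of -1.08 and -1.50 (limma adjusted p = 0.0122 and 0.00872).

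Set against the activator in the same library, *PoxGA15A* was at 13.3, 21.6 and 24.1 times the FPKM of *amyR* in Δ*ku70* and at 11.8, 11.1 and 11.2 times in Δ*rsrC*. The strains did not overlap (exact permutation p = 0.1), and the change relative to *amyR* was -0.75 on the log2 scale (limma adjusted p = 0.0412). With 1 library omitted at a time, that call was lost in 5 of 6 cases (limma adjusted p = 0.0845 to 0.106) and held without Δ*ku70* replicate 1. It was also lost without the trend of the prior variance on level (limma adjusted p = 0.0514) and with the replicate block (0.0791), and was kept in 9 of 16 alternatives. Relative to *creA*, *PoxGA15A* was at 2.97, 4.79 and 5.30 times in Δ*ku70* and 3.31, 2.88 and 2.99 times in Δ*rsrC*. These values overlapped, and a difference between strains in this ratio was not larger than the spread of the libraries (exact permutation p = 0.3). The ratio of *POX_b02418* to *creA* was 1.42, 2.22 and 3.13 in the parent and 1.25, 1.07 and 1.15 in the mutant, without overlap (exact permutation p = 0.1). Ratios to *amyR* did not overlap for 50.3% of genes, in either direction. For ratios to *creA* that share was not counted.

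For the α-amylase gene *amy13A* the parent libraries gave 134, 359.9 and 517 FPKM and the mutant libraries 569, 522 and 397 FPKM, which overlapped and did not pass (log2 change 0.74, limma adjusted p = 0.237). Its ratio to *amyR* was 2.31, 6.76 and 8.47 in Δ*ku70* and 13.6, 10.3 and 8.83 in Δ*rsrC*. Each Δ*rsrC* library was above each Δ*ku70* library on that ratio (exact permutation p = 0.1), and the fit relative to *amyR* gave a log2 change of 1.06 (adjusted p = 0.119). That change was 1.43 without Δ*ku70* replicate 3 (limma adjusted p = 0.0470) and 0.50 without Δ*ku70* replicate 1 (0.159), and passed in 1 of 16 alternatives. Without Δ*ku70* replicate 1 the change of the deposited values was 0.18 (limma adjusted p = 0.562). The ratio of *amy13A* to *creA* ranged over 0.517 to 1.86 in the parent and 2.36 to 3.81 in the mutant, also without overlap (exact permutation p = 0.1). Beside this, 50.3% of genes had a ratio to *amyR* without overlap in either direction, and the share for *creA* was not counted.

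Relative to *amyR*, 3 of the 8 amylolytic genes were called lower and 3 higher, beside 6.59% lower and 24.9% higher over all genes in that fit. *POX_b02418* fell by 1.18 on the log2 scale (limma adjusted p = 0.0180), a call lost without Δ*rsrC* replicate 1 (0.0580) or replicate 2 (0.0551). The α-glucosidase gene *POX_g08885*, which codes for an enzyme that releases glucose from short sugars, rose relative to *amyR* by 1.56 on the log2 scale (limma adjusted p = 0.00138) and kept that call in all 16 alternatives. The α-glucosidase gene *POX_e06687* fell by 0.84 on that scale with a limma adjusted p of 0.0455, and kept the call in 5 of 16. The α-glucosidase gene *POX_f08248* rose relative to *amyR* by 0.53 (limma adjusted p = 0.0426), kept in 7 of 16. *POX_d05520*, a gene for a glucan branching enzyme, rose on that scale by 0.51 (limma adjusted p = 0.0457), kept in 9 of 16. As deposited, *POX_f08248* and *POX_d05520* were at 0.21 and 0.19 (limma adjusted p = 0.281 and 0.292), with the strains overlapping. The median log2 change relative to *amyR* over all genes in that fit was 0.19. Of the Rsr regulators, *rsrA* fell as deposited (log2 change -0.49, limma adjusted p = 0.0329) and was at -0.17 relative to *amyR* (adjusted p = 0.499). Its call was lost in 7 of 16 alternatives, namely median-ratio scaling (limma adjusted p = 0.0908), quantile normalization (0.189), the replicate block (0.0761) and omission of Δ*ku70* replicate 2 (0.0658) or 3 (0.0668) or of Δ*rsrC* replicate 2 (0.103) or 3 (0.0816). *rsrB* was at 0.21 as deposited (limma adjusted p = 0.278) and rose by 0.53 relative to *amyR* (adjusted p = 0.0345), a call kept in 10 of 16 alternatives.

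**Figure D4:**
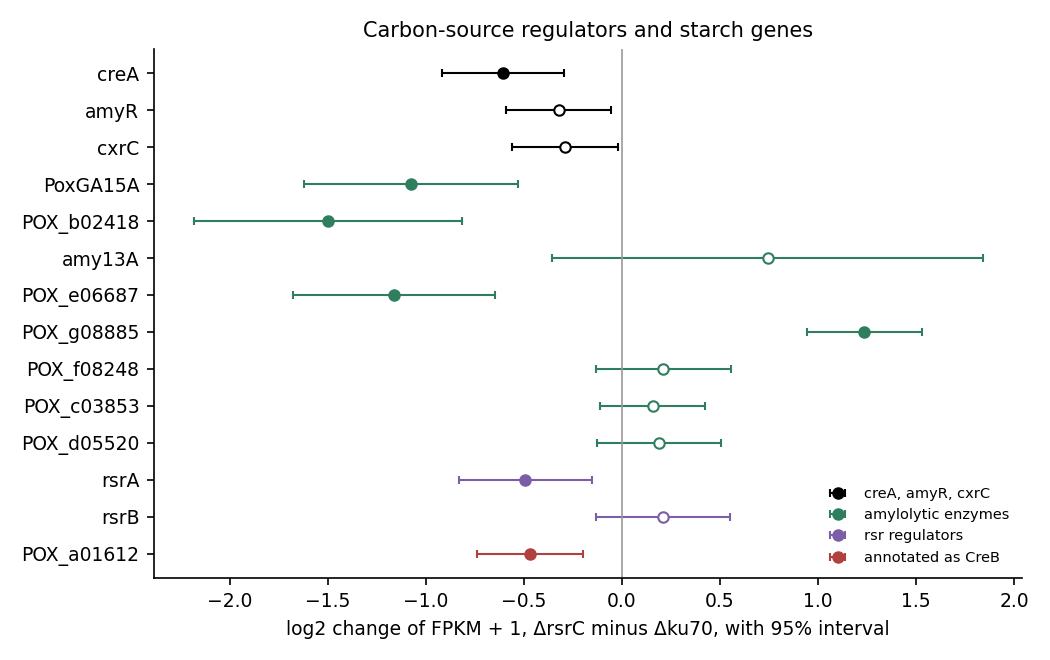
Log2 change of FPKM + 1 (Δ*rsrC* minus Δ*ku70*) with 95% interval for *creA*, *amyR* and *cxrC* (black), 8 amylolytic genes (green), *rsrA* and *rsrB* (purple) and the gene annotated as CreB (red). Filled points have a limma adjusted p under 0.05. The intervals of *creA* (-0.92 to -0.30) and *PoxGA15A* (-1.62 to -0.53) lie below 0, and that of *amy13A* (-0.36 to 1.84) spans it.

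The gene POX_a01612 is annotated in the study as a putative ubiquitin carboxyl-terminal hydrolase CreB, a deubiquitinating enzyme known in *Aspergillus* as part of the carbon catabolite repression machinery. The parent libraries gave 20.4, 19.9 and 19.8 FPKM and the mutant libraries 15.8, 14.1 and 12.9 FPKM. The strains did not overlap, and the gene fell with a log2 change of -0.47 (limma adjusted p = 0.0181). The call was lost after median-ratio scaling (adjusted p = 0.0530) and quantile normalization (0.135), with a replicate block (0.0562), and without Δ*ku70* replicate 1 (0.0541), Δ*rsrC* replicate 2 (0.0574) or Δ*rsrC* replicate 3 (0.0559). Relative to *amyR* its log2 change was -0.15 (limma adjusted p = 0.493).

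Other genes of the same protein classes were compared, namely 84 genes annotated as C2H2 or Zn2Cys6 transcription factors. They come from shortened tables of genes that the study called in its *rsrB* and *rsrA* mutants, so they are not a full or neutral list. Of 83 tested, 38 (45.8%) were called lower in Δ*rsrC* and 1 (1.2%) higher, with a median log2 change of -0.35. The background was 25.6% lower and 13.8% higher, with a median of -0.13. *amyR* and *cxrC* lay near the middle of these genes, with 43 and 47 of the 83 more negative, and 25 of the 83 were more negative than *creA*. Relative to *amyR*, 6 of the 83 (7.23%) were called lower and 11 (13.3%) higher, beside 6.59% and 24.9% of all genes. After median-ratio scaling 27 (32.5%) were called lower and 7 (8.43%) higher, beside 17.3% and 18.9% of all tested genes. The 39 calls in either direction became 22 without Δ*rsrC* replicate 1, but the share over all tested genes was not counted in that fit.

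**Figure D5:**
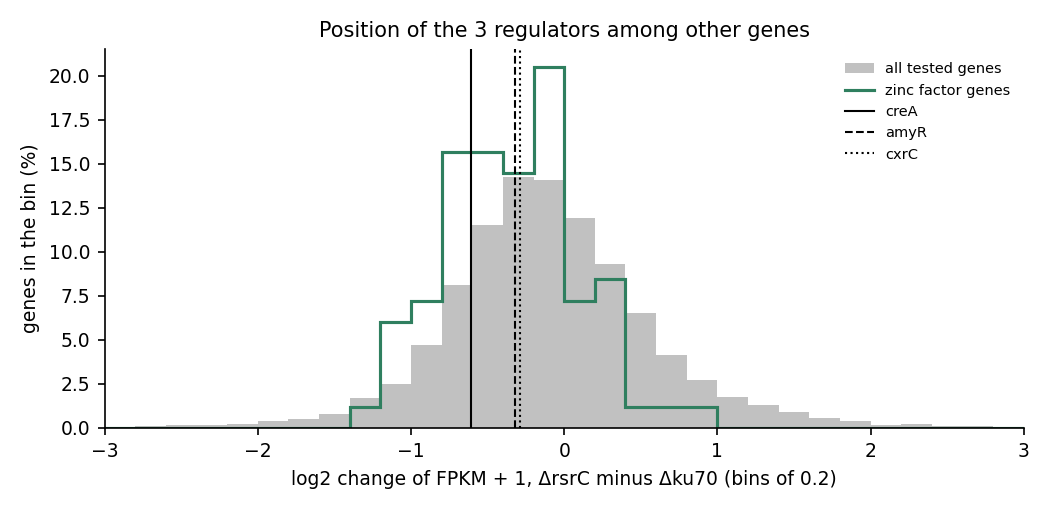
Share of genes (%) in bins of log2 change (Δ*rsrC* minus Δ*ku70*) for all 8605 tested genes (grey) and the 83 tested zinc factor genes (green), with vertical lines at *creA* (-0.61), *amyR* (-0.32) and *cxrC* (-0.29). The axis is cut at -3 and 3. The lines of *amyR* and *cxrC* fall beside the zinc factor median of -0.35, and that of *creA* lies to the left of it.

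The nearest gene numbers, 2 on each side of each regulator gene, were examined for changes shared along the chromosome. The RefSeq gene table places these 12 genes next to *creA*, *amyR* and *cxrC* in that order and holds 0 genes that overlap them. Of the 12, 10 were tested, and 1 rose while 0 fell, beside 13.8% called higher and 25.6% called lower over all tested genes. The gene that rose, POX_e07193, lies directly beside *creA*, with 62.3, 58.1 and 75.1 FPKM in the parent libraries and 109, 112 and 114 FPKM in the mutant libraries. The strains did not overlap, and its log2 change of 0.78 (limma adjusted p = 0.00455) was opposite in sign to that of *creA* under each of the 16 alternatives. The share of all tested genes that were higher in Δ*rsrC* without overlap was not counted. On the other side of *creA*, POX_e07190 and POX_e07191 were listed at 0 in all 6 libraries.

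The 8 tested neighbours of *amyR* and *cxrC* did not pass. Beside *amyR*, POX_f08095 ranged over 28.6 to 28.9 FPKM in the parent and 28.2 to 29.8 FPKM in the mutant, with a log2 change of 0.01 (95% interval -0.20 to 0.22, limma adjusted p = 0.942). Beside *cxrC*, POX_a00543 had 18.0 and 19.7 FPKM in replicates 1 and 2 of the parent and 18.9 FPKM in replicate 2 of the mutant, and it was listed at 0 in the other 3 libraries. Each strain thus held libraries at 0 and libraries at 18.0 FPKM or more. After TPM rescaling, 3 of the 10 tested neighbours were called lower and 1 higher, beside 42.4% and 8.65% of all tested genes.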

How the data were processed

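FPKM for 9822 genes, rounded to 2 decimals, were deposited by the authors library by library, without pooling. The study names BWA, Bowtie2 and RSEM and the genome of strain HP7-1, whereas the submitters' processing notes name bcl2fastq and HISAT2. The study points to a GenBank genome of HP7-1, but the tables name no build, and the strand setting is not given in the sources used here. No coordinates are printed, and the RefSeq gene table (assembly ASM172317v3), which matched 9718 of the 9822 IDs, served only for gene order.

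Values were transformed as log2(FPKM + 1), which understates changes of low genes. The 8605 genes averaging 1 FPKM or more were tested with limma (version 3.58.1, R 4.3.3, functions lmFit and eBayes, prior variance trended on level), two-sided, without covariates, with Benjamini-Hochberg adjustment over all tested genes. "Called" means an adjusted p under 0.05. Intervals are unadjusted. Relative changes were fitted in the same way after subtracting the reference gene's log2(FPKM + 1) in each library, so their errors share that gene's error. Ratios used FPKM without a pseudocount and exact two-sided permutation tests. The limma fit was also run on simulated data with independent noise in each gene and no scaling difference between strains. That run therefore does not bear on the scaling of these libraries. Members and lists were chosen with earlier results of these data known. The text names the 3 members, the genes of the lists (for zinc factor genes only counts) and, for each member, the 3 genes with the highest r. Scaling, pseudocount, filter, prior variance, a replicate block and omission of each library were varied.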

Additional observations from a re-analysis of the deposited data

How the results depend on the processing

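Over the 16 alternatives to the limma fits, *creA* kept its direction and an adjusted p under 0.05 in all 16 (log2 change -0.83 to -0.47, adjusted p 0.00306 to 0.0482). Under TPM rescaling *amyR* (-0.54) and *cxrC* (-0.50) passed, and 4 neighbour genes were called in place of 1. With a minimum mean of 10 FPKM *amyR* (-0.32) passed at an adjusted p of 0.0494, with fewer genes tested. The adjusted p over all alternatives was 0.00741 to 0.297 (*amyR*) and 0.0106 to 0.653 (*cxrC*). After quantile normalization the relative changes of *creA* to *amyR* (-0.50) and to *cxrC* (-0.59) passed, and the log2 ratios of FPKM moved likewise (-0.50 and -0.59, from -0.28 and -0.31), since that step shifts genes by level and not by 1 factor. TPM rescaling turned the signs of *POX_f08248* (-0.018), *POX_c03853* (-0.071), *POX_d05520* (-0.039) and *rsrB* (-0.016), and quantile normalization that of *POX_f08248* (-0.061).

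When each of the 6 libraries was left out in turn, the log2 change was -0.71 to -0.51 for *creA*, -0.39 to -0.26 for *amyR* and -0.36 to -0.23 for *cxrC*. The relative changes were -0.31 to -0.25 for *creA* to *amyR*, -0.41 to -0.20 for *creA* to *cxrC* and -0.13 to 0.080 for *amyR* to *cxrC*, and the log2 ratios -0.31 to -0.25, -0.41 to -0.19 and -0.13 to 0.087. The calls among amylolytic genes numbered 4 in each fit, those among zinc factor genes 22 to 36 and those among neighbours 1 to 2, the latter 2 without Δ*ku70* replicate 2. Shares over all tested genes were not counted for these fits or for the replicate block, so these counts have no background beside them. Both strains carry replicate numbers 1 to 3, but deviations of same-numbered libraries correlated at 0.0046, -0.13 and -0.24, and the numbers were taken as names only. With the replicate block 25 zinc factor genes were called, and *creA* (-0.61), *amyR* (-0.32) and *cxrC* (-0.29) had adjusted p of 0.0482, 0.145 and 0.125. Depth is unknown, and no floor was set.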

Other observations

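The ratios of 3 amylolytic genes to *amyR* were compared for their range within each strain. The highest Δ*ku70* ratio to *amyR* was 1.82-fold the lowest for *PoxGA15A*, 2.25-fold for *POX_b02418* and 3.66-fold for *amy13A*. In Δ*rsrC* the same spreads were 1.06-fold, 1.08-fold and 1.54-fold. For each of these 3 genes, Δ*ku70* replicate 1 was the lowest and Δ*ku70* replicate 3 the highest library of the parent. In Δ*ku70* replicate 3 *cxrC* was at its lowest of the parent, and *creA* and *amyR* were at their highest. In Δ*rsrC* replicate 3 *cxrC* was again lowest, and so was the *amy13A* ratio (8.83), but not those of *PoxGA15A* and *POX_b02418*. Whether the spread differs between strains was not tested.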
